A study of Bos taurus with 28 samples.

Results

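The comparison covers the onset of elongation in the bovine conceptus: 5 libraries labelled day 13 were set against 7 labelled day 10, 12 of the 28 libraries of a time course of mRNA sequencing. Libraries were chosen by their label alone, and their files carry the title of the same sample. By the labels' protocols, embryos were flushed from the uteri of crossbred beef heifers (Bos taurus) of about 18 months that were all inseminated with semen of a single bull. The day 10 group is the spherical conceptus after hatching, from superovulated heifers, with embryos pooled by 5; the sample characteristics also state pooling and superovulation. The day 13 group is the ovoid conceptus at the start of elongation. For this group the protocols name single conceptuses of heifers that were not superovulated, whereas the sample characteristics name an elongated embryo pool and superovulation. By the protocols, pooling and superovulation changed together with stage, so their parts cannot be told apart. Polyadenylated RNA was taken directly from the embryos on both days. The labels do not name the heifer of each library, so p-values measure only the spread between these samples, which may be technical.

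The conceptus is the embryo with the membranes that surround it. After hatching from the zona pellucida, the bovine blastocyst does not implant at once but stays free in the uterine lumen, nourished by the secretions of the endometrium. Its outer layer, the trophectoderm, then multiplies and changes shape, so that the sphere becomes ovoid, tubular and at last a long filament. Elongation fills the uterine horn with trophectoderm, which secretes interferon tau, the signal by which the ruminant mother recognises pregnancy.

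The files list Ensembl transcript identifiers without gene names, and 0 of 28054 identifiers matched the RefSeq gene table used here (assembly ARS-UCD2.0). Transcripts are therefore described as groups, and 4 by identifier. The lists of trophoblast, epiblast, hypoblast, endometrium and blood markers were not analysed here, so the labelled tissue was not checked against markers. The unit is RPKM, reads per kilobase of transcript and per 1e6 reads of the library (written M below), which compares levels between transcripts per length. Reads recovered from these values gave totals of 0.641 to 5.202 M on day 10 and 4.64 to 6.50 M in day 13 replicates 1 to 4, but 1.23 M in day 13 replicate 5.

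Day 13 replicate 5 stood apart from the rest of its day. With every library thinned to 640790 reads, Pearson's r across transcripts, on log2(CPM + 1) of thinned reads, was 0.888 to 0.918 over the 6 pairs of day 13 replicates 1 to 4. It was 0.737 to 0.745 between replicate 5 and these 4, and 0.664 to 0.784 between replicate 5 and the 7 day 10 libraries. Day 10 was itself loose, at 0.655 to 0.818 over 20 of its 21 pairs. The remaining pair, replicates 4 and 5, stood at 0.927. These were also the pair of day 10 libraries nearest to day 13 replicates 1 to 4, at 0.848 to 0.862, above their values with every other day 10 library. They were the deepest day 10 libraries too, at over 4 M reads each. The values do not tell whether both came from the same material; if so, day 10 has 6 samples and not 7. Averaged as 1 sample, an alternative chosen after seeing the data, they gave 46 calls with all 12 libraries and 174 without day 13 replicate 5. Day 10 replicate 7 differed in another way, with 38.4% of its reads in a single transcript of 92 nucleotides (95% Wilson interval 38.3 to 38.5, counting error only). Correlations across transcripts describe the libraries, and transcripts are not independent replicates.

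**Figure D1:**
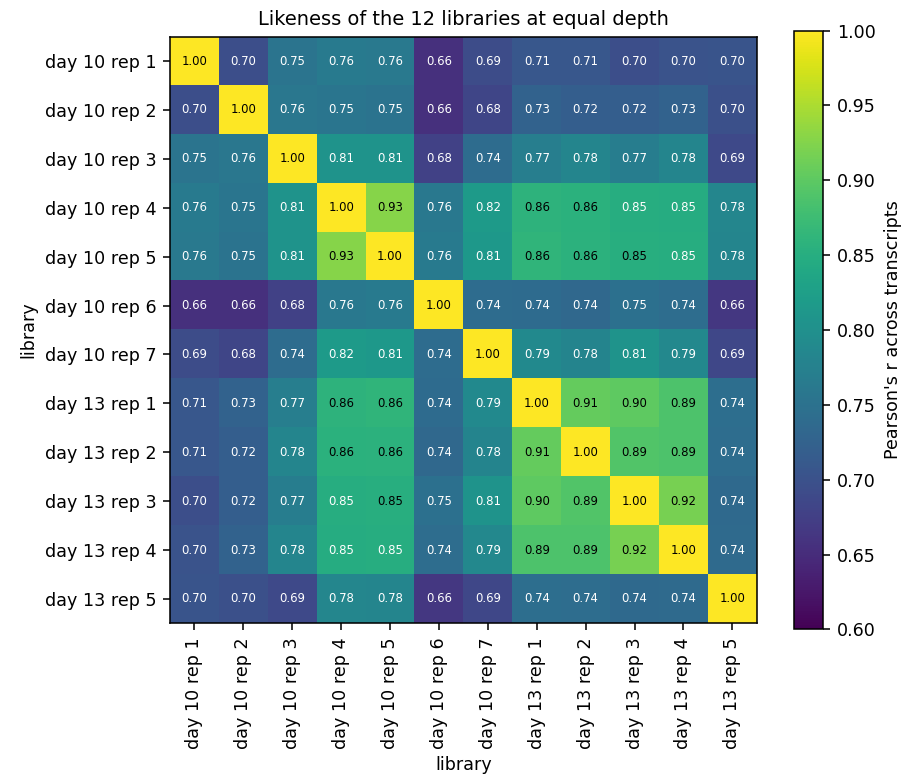
Pearson's r across the tested transcripts between each pair of the 12 libraries, all thinned to 640790 reads, on log2(CPM + 1); colour runs from 0.6 to 1. Day 13 replicates 1 to 4 form the block at 0.888 to 0.918, and day 13 replicate 5 lies at 0.737 to 0.745 with them.

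Between day 10 and day 13, more transcripts were called lower than higher. Among the called transcripts, the largest changes on the log2(RPKM + 1) scale were falls. Over all tested transcripts the balance was the other way, as given below. With all 12 libraries, 35 of 15769 transcripts changed (0.222%), 13 higher on day 13 (0.0824%) and 22 lower (0.14%). Without day 13 replicate 5, 189 of 15544 changed (1.22%), 65 higher (0.418%) and 124 lower (0.798%). All 13 rises and all 22 falls of the first fit were among those of the second. A transcript was called at an adjusted p under 0.05 (limma on log2(RPKM + 1), Benjamini-Hochberg) and a log2 change of at least 1 either way. Before adjustment, 1671 transcripts had a p under 0.05 with all 12 libraries (10.6%) and 1988 without replicate 5 (12.8%). Total reads as a covariate gave 1 call with all 12 libraries and 83 without replicate 5, of which 69 were among the 189. Depth ran largely with day: 2 of the 7 day 10 libraries and 4 of the 5 day 13 libraries had over 4 M reads. This covariate therefore cannot separate depth from day, and a call lost with it has no assigned cause. With all 12 libraries, the count fell to 2 without day 13 replicate 1 or 3, 1 without replicate 2 and 6 without replicate 4. The model of all 5 days turned the balance with all 12 libraries, to 151 higher and 110 lower. Leaving out day 10 replicate 5 gave 26 higher and 24 lower.

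Over all tested transcripts the median log2 change, day 13 minus day 10, was 0.17 with all 12 libraries, and 60.9% of them lay above 0. Without replicate 5 the median was 0.26 and 66.0% lay above 0. Under quantile normalization the median with all 12 libraries was 0.04, and the calls were 30 higher and 48 lower. That scaling gives each library the same distribution, so a median near 0 was set in advance there. Without a filter the median was -0.0046, but over 23687 transcripts, which takes in those below the filter. These settings therefore do not tell whether the shift among the filtered transcripts holds. With total reads as a covariate, which overlaps with day, the median was -0.03, so the shift was not seen in that setting. The median with all 12 libraries was 0.07 without the 92-nucleotide transcript with the highest RPKM, and 0.096 without day 10 replicate 7. It was 0.07 with voom on recovered reads and 0.04 with array weights. In the libraries over 4 M reads alone it was 0.03. Other settings gave higher medians, 0.20 with a pseudocount of 0.5 and 0.22 with a filter at 5 RPKM. The median over transcripts of the mean RPKM was 10.36 on day 10 and 10.35 on day 13 with all 12 libraries, and 10.61 and 10.43 without replicate 5. The count of transcripts whose libraries did not overlap was larger for the higher side than for the lower, unlike the calls. Without replicate 5, 459 lay higher in all 4 day 13 libraries than in all 7 of day 10 (2.95%), and 215 lower (1.38%). With all 12 libraries these were 175 (1.11%) and 61 (0.387%).

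**Figure D2:**
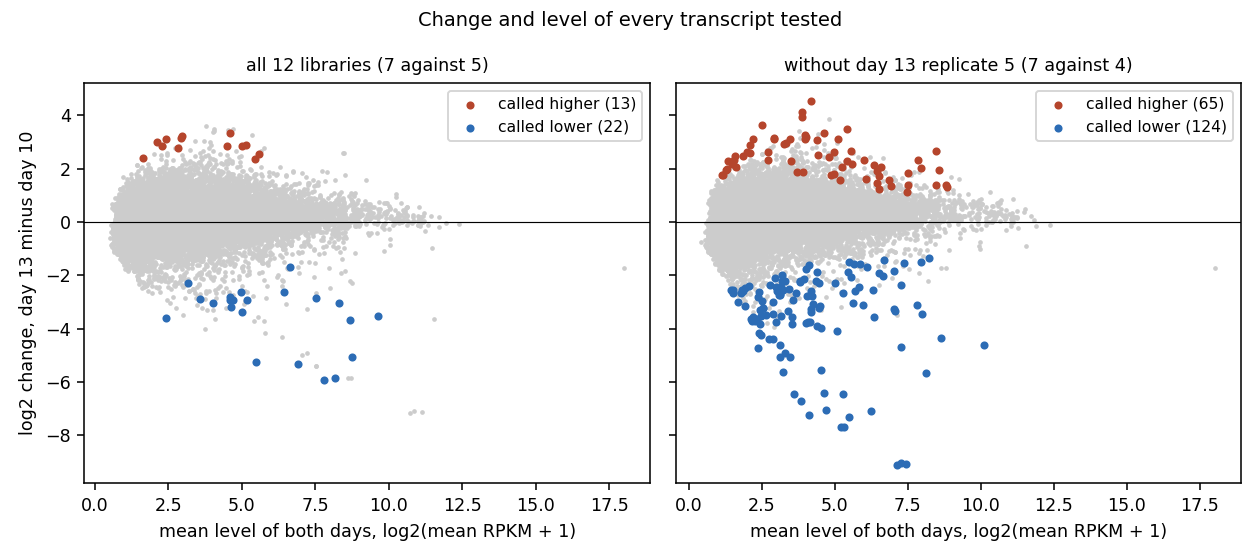
Log2 change, day 13 minus day 10, of every tested transcript (vertical axis) against its level over both days (horizontal axis, log2 of mean RPKM + 1), with all 12 libraries on the left and without day 13 replicate 5 on the right. Red points were called higher (13 and 65) and blue points lower (22 and 124); the falls reach further from 0 than the rises.

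The 124 transcripts that fell without replicate 5 had a median log2 change of -3.09, against 0.26 over all tested, and the size of the fall ran from 1.33 to 9.12 on the log2 scale. In 29 of them the fall was at least 4 on the log2 scale, and in 13 at least 6. Their median level was 49.7 RPKM on day 10 and 2.89 RPKM in day 13 replicates 1 to 4. On day 10, 39 of them were above 100 RPKM. In 112 of the 124, all 4 day 13 libraries lay below all 7 of day 10, against 1.38% of all tested. In each library the median level of the group on the log2(RPKM + 1) scale was 5.00 at the lowest, 5.24 at the middle and 6.37 at the highest of the day 10 libraries. Day 13 replicates 1 to 4 stood at 1.88, 1.96, 1.84 and 1.92, in that order. These 4 were thus close together and well below day 10, and the group took 2.10 to 5.34% of all reads on day 10 but 0.232 to 0.295% in them. The calls used these same values, so they describe the groups and are no further test. In whole conceptuses, fewer cells of a type and less RNA per cell cannot be told apart.

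Some transcripts were read on day 10 and not at all in day 13 replicates 1 to 4. A read in every day 10 library and none in the 22.4 M reads of these 4 was found for 13 of the 28054 transcripts. A count of 0 in those reads allows up to 0.134 CPM, counting error only. Their mean on day 10 reached 294 RPKM, and it was at least 5 RPKM in 10 of the 13. Conversely, a read in each of the 4 and none in the 16.1 M reads of day 10 was found for 22 of the 28054. Of these, 0 reached a mean of 5 RPKM, and the highest stood at 1.61. A read in all 7 day 10 libraries, some of them shallow, asks for a higher level than a read in 4 deep ones, so the levels on both sides cannot be compared. Of the 13, 5 were called lower, against 0.798% of all tested, and the 13 were chosen on the same values. With all 12 libraries, 2 transcripts met the condition in each direction, with highest means of 3.55 RPKM on day 10 and 3.11 RPKM on day 13. In day 13 replicate 5, 11 of the 13 day 10 transcripts had reads, and the highest value was 566 RPKM. How many of all transcripts with a read in every day 10 library had one there is not given, so the 11 are a description only.

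The 65 transcripts that rose without replicate 5 had a median log2 change of 2.30, from 1.12 to 4.53. Their median level was 8.06 RPKM on day 10 and 51.9 RPKM in day 13 replicates 1 to 4, where 22 of them were above 100 RPKM. In 58 of the 65, the 4 day 13 libraries lay above all 7 of day 10, against 2.95% of all tested. The rises too were called on these same values, so this is no further test. The median level of the group was 2.50 to 3.99 on the log2(RPKM + 1) scale in the day 10 libraries, and 5.81, 5.82, 5.59 and 5.45 in day 13 replicates 1 to 4. The share of reads was small on both days, 0.164 to 0.405% on day 10 and 0.966 to 1.21% in the 4 day 13 libraries.

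The rises were set beside the depth of the libraries. Of the 65, between 19 and 25 had no read in the 5 shallower day 10 libraries, 4 and 2 had none in day 10 replicates 4 and 5, and 0 lacked a read in day 13 replicates 1 to 4. The 65 were called for being lower on day 10, and the share without a read over all tested is not given. With reads thinned to equal depth, 54 rises and 116 falls were called without replicate 5. Total reads as a covariate gave 2 rises and 81 falls, against 65 and 124 without it, and 69 of these calls were shared. In the libraries over 4 M reads alone, 2 of day 10 and 4 of day 13, 175 transcripts were higher and 416 lower. That last comparison rests on day 10 replicates 4 and 5, which would be 1 sample if they share material, and was chosen after seeing the data. The part of depth in the rises was not tested.

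Day 13 replicate 5, which the second fit did not use, lay apart from the other 4 of its day for most falling transcripts. The median of the 124 was 5.46 there on the log2(RPKM + 1) scale, within the day 10 range and above 1.96, the highest of the other 4. The group took 4.16% of its reads (95% Wilson interval 4.12 to 4.19, counting error only). Replicate 5 lay within the range of the day 10 libraries for 91 of the 124 (73.4%), near the 71.2% of all tested. It lay within the range of day 13 replicates 1 to 4 for 4 transcripts (3.23%, against 26.0% of all tested). It was nearer to the mean of these 4 than to the day 10 mean for 14 of the 124 (11.3%, against 45.0% of all tested). The 124 were chosen for low values in these 4, without replicate 5, so both contrasts with all tested are partly by choice. Below the day 10 mean were 54 of the 124 (43.5%, against 54.4% of all tested), and below every day 10 library were 25 (20.2%, against 12.6% of all tested). The 22 transcripts that fell in both fits had a median of 5.84 there, below the 6.46 of the lowest day 10 library and above the 2.85 of the highest of the other 4; the fit that called them with all 12 libraries used replicate 5.

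For the rising transcripts replicate 5 lay between both days. The median of the 65 was 4.32 on the log2(RPKM + 1) scale, above the 3.99 of the highest day 10 library and below the 5.45 of the lowest of the other 4 day 13 libraries. It exceeded the day 10 mean for 40 of the 65 (61.5%, against 45.6% of all tested) and every day 10 library for 23 (35.4%, against 2515 of the 15544 tested). It was nearer to day 13 replicates 1 to 4 for 26 of the 65 (40%, against 45.0% of all tested), and 14 of the 65 had no read in it. Its shares of reads were 0.611% for the rises (95% Wilson interval 0.597 to 0.625). The 65 too were chosen without replicate 5, so their contrast with all tested is partly by choice. These counts are of transcripts in a single library, so they have no replicate check.

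**Figure D3:**
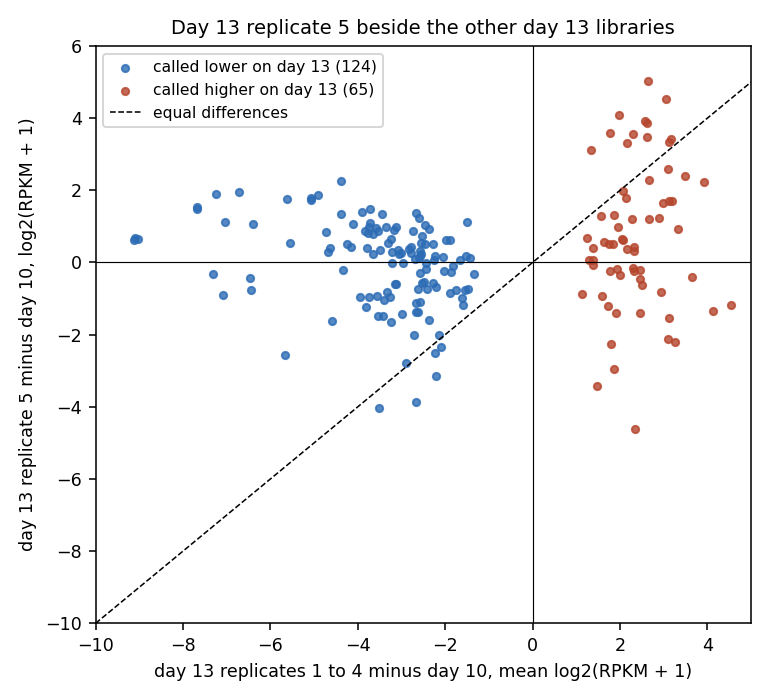
For each transcript called without day 13 replicate 5, the difference from the day 10 mean on the log2(RPKM + 1) scale in the mean of day 13 replicates 1 to 4 (horizontal axis) and in day 13 replicate 5 (vertical axis); the dashed line marks equal differences. Blue points (124 falls) lie mostly around 0 on the vertical axis, and red points (65 rises) spread to both sides of it.

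The called transcripts were then followed through libraries that the comparison did not use: 5 of day 7, 4 of day 16 and 4 of day 19. Both groups were chosen by their day 10 and day 13 levels, so their levels on the other days are a description beside that of all tested transcripts. The 124 that fell had a median level of 4.15 to 5.78 in the day 7 libraries, 6.77 to 7.07 on day 16 and 6.37 to 7.06 on day 19, on the log2(RPKM + 1) scale. Their mean on day 16 was above that on day 10 for 109 of the 124 (87.9%, against 41.2% of all tested), and on day 19 for 103 (83.1%, against 34.8%). On day 7 it was above the day 10 mean for 22 (17.7%, against 49.6%). The group took 9.17 to 14.0% of all reads on day 16 and 8.75 to 12.3% on day 19, above every day 10 library.

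The 65 that rose had no such later level. Their median was 1.76 to 3.29 on day 7, 2.67 to 3.39 on day 16 and 2.58 to 3.07 on day 19, all within or below the day 10 range of 2.50 to 3.99. Their mean was above that of day 10 for 27 on day 7 (41.5%), 31 on day 16 (47.7%) and 29 on day 19 (44.6%), against 49.6%, 41.2% and 34.8% of all tested. RNA was prepared as total RNA first on days 16 and 19, so preparation and stage cannot be told apart there.

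**Figure D4:**
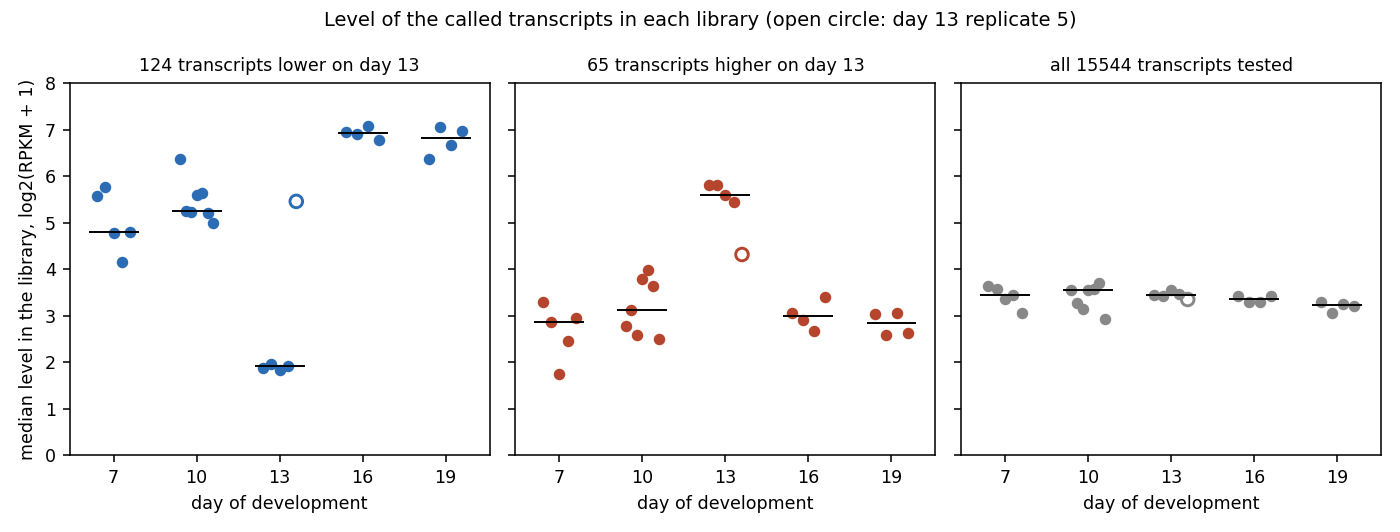
Median level of the 124 falling, the 65 rising and all 15544 tested transcripts, log2(RPKM + 1), in each library of each day; 1 point is 1 library, the bar is the median over the libraries of the day, and the open circle is day 13 replicate 5. The falling group stands at 1.84 to 1.96 in day 13 replicates 1 to 4, at 5.46 in replicate 5 and above 6 on days 16 and 19, while the median of all tested transcripts stays at 2.93 to 3.71 in the libraries of the 5 days.

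Of each direction, the 2 transcripts with the smallest p with all 12 libraries are named, among those called in both fits, without overlap between the days and with a mean of at least 5 RPKM on the higher day. By p they were 1, 2, 3 and 14 among all tested. The largest drop among them was that of ENSBTAT00000005399, of 805 nucleotides. On day 10 its lowest, median and highest values were 510, 2544 and 4212 RPKM, and on day 13 replicates 1 to 5 had 57.0, 30.3, 17.1, 34.5 and 282 RPKM. All day 13 values lay below all of day 10, with replicate 5 the highest of its day. The lowest day 10 values were the 533 and 510 RPKM of replicates 4 and 5, and the other 5 were at 1346 RPKM or more. The log2 change was -5.05 ± 0.64 (SE; limma, adjusted p = 0.00482), and -5.67 ± 0.56 without replicate 5 (adjusted p = 1.5e-05). The transcript was back at 836 to 925 RPKM on day 16 and at 791 to 1219 RPKM on day 19, below its day 10 median.

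ENSBTAT00000015599, of 1440 nucleotides, fell from 16.46, 29.4 and 63.2 RPKM (lowest, median and highest of day 10) to 2.35, 2.81, 5.54, 2.20 and 3.38 RPKM in day 13 replicates 1 to 5. Here replicate 5 lay inside the range of the other 4, but on 6 reads, against 17 to 37 in them. So few reads do not place it firmly in that range. In most of the falling group replicate 5 lay outside the range of the other 4. The naming rule used replicate 5 and asked for no overlap between the days, whereas that group was called without it. The contrast is therefore partly by choice. The log2 change was -2.89 ± 0.42 (SE; limma, adjusted p = 0.00985), and -2.91 ± 0.44 without replicate 5 (adjusted p = 0.00179). The call ended with total reads as a covariate (log2 change -2.37, adjusted p = 0.155, limma), without day 13 replicate 1 (-2.81, adjusted p = 0.0554) and without replicate 2 (-2.86, adjusted p = 0.051). On day 16 its level was 15.5 to 23.8 RPKM and on day 19 24.6 to 33.0 RPKM, within the day 10 range except for the lowest value of day 16.

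Of the rises, ENSBTAT00000011264, of 3951 nucleotides, was at 5.16, 9.48 and 25.7 RPKM on day 10 (lowest, median and highest). Day 13 replicates 1 to 5 had 108, 76.8, 68.9, 42.4 and 168 RPKM, all above day 10 as the naming rule requires, and replicate 5 was the highest. The log2 change was 2.87 ± 0.43 (SE; limma, adjusted p = 0.00985), and 2.62 ± 0.44 without replicate 5 (adjusted p = 0.0043). On days 16 and 19 it was at 10.2 to 21.2 and 10.2 to 13.5 RPKM, back in the day 10 range.

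ENSBTAT00000028140, of 1689 nucleotides, went from 3.50, 13.4 and 21.6 RPKM on day 10 to 86.0, 89.1, 110, 81.5 and 33.6 RPKM in day 13 replicates 1 to 5. Replicate 5 was the lowest of its day but above all of day 10, as the naming rule requires. The log2 change was 2.84 ± 0.47 (SE; limma, adjusted p = 0.0129), and 3.12 ± 0.48 without replicate 5 (adjusted p = 0.00187). Within day 10 the 2 deepest libraries, replicates 4 and 5, were highest at 20.5 and 21.6 RPKM, on 177 and 190 reads. Replicates 1, 2 and 7 were lowest at 3.50, 4.62 and 4.34 RPKM, on only 6, 5 and 5 reads, so these low values are imprecise. Both rises lost their call with total reads as a covariate, with log2 changes of 2.94 for ENSBTAT00000011264 (adjusted p = 0.134, limma) and 2.01 for ENSBTAT00000028140 (adjusted p = 0.177, limma). That of ENSBTAT00000011264 was also lost without day 13 replicate 1, 2 or 3 (log2 changes 2.78, 2.90 and 2.94; limma adjusted p = 0.0554, 0.051 and 0.0506). That of ENSBTAT00000028140 was lost without day 13 replicate 1, 2, 3 or 4 (2.79, 2.78, 2.70 and 2.81; limma adjusted p = 0.0642, 0.0594, 0.0764 and 0.0545). Without day 13 replicate 5, total reads as a covariate also ended the calls of ENSBTAT00000015599, ENSBTAT00000011264 and ENSBTAT00000028140 (log2 changes -2.03, 2.39 and 2.06; limma adjusted p = 0.0975, 0.111 and 0.103).

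**Figure D5:**
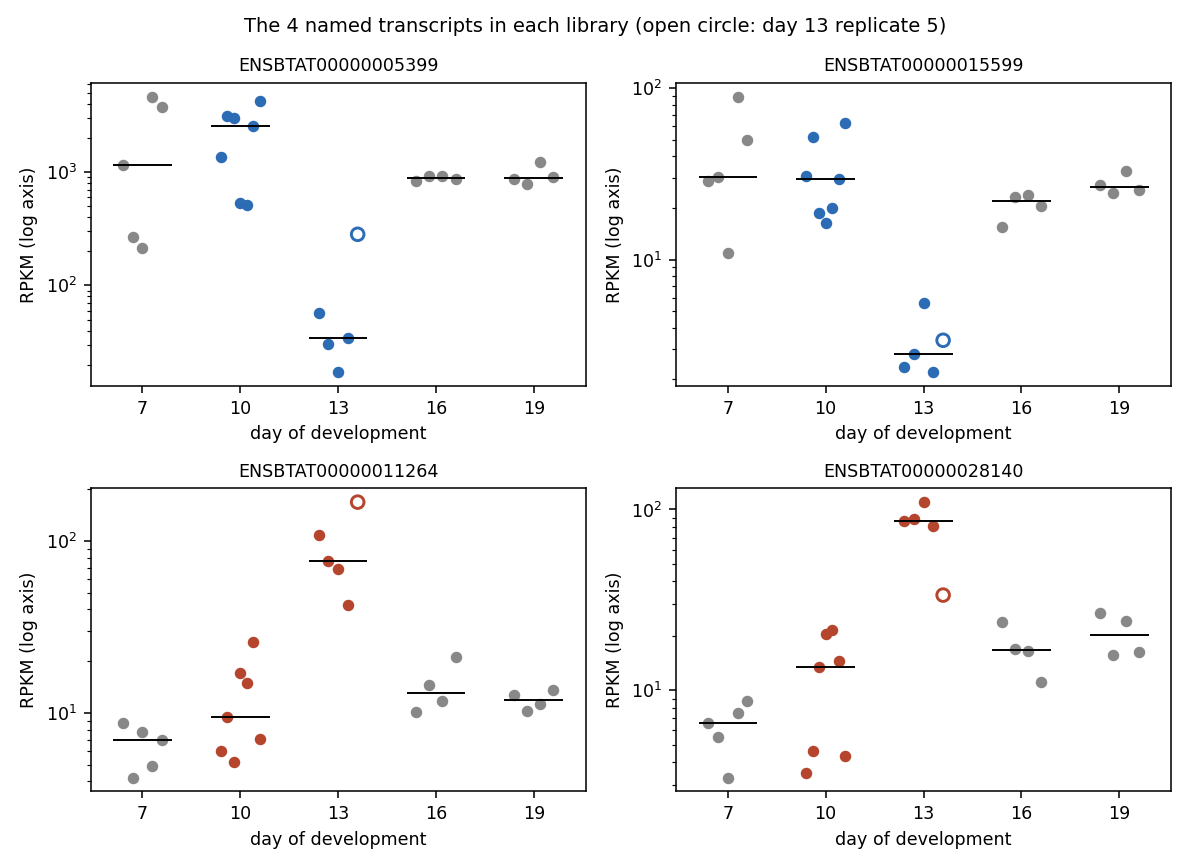
RPKM of the 4 named transcripts (log axis) in each library by day; coloured points are days 10 and 13, grey points the other days, the bar is the median of the day and the open circle is day 13 replicate 5. In each panel the 5 day 13 libraries lie outside the range of the 7 day 10 libraries, which the rule for naming the transcripts requires.

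The share of transcripts called lower was highest among abundant transcripts, and without replicate 5 so was the share called higher. With all 12 libraries, 10 of 1034 transcripts above 100 RPKM fell (0.967%) and 0 rose. Without replicate 5, 34 of the 1034 transcripts with a mean above 100 RPKM over the 12 libraries fell (3.29%) and 12 rose (1.16%). Between 10 and 100 RPKM, 76 of 7075 fell (1.07%) and 32 rose (0.452%). Between 1 and 10 RPKM, 14 of 7114 fell (0.197%) and 21 rose (0.295%). The error of the change was larger for weak transcripts, with a median SE of 0.62 on the log2 scale at 1 to 10 RPKM and 0.36 above 100 RPKM. The log2(RPKM + 1) scale also understates changes of weak transcripts. By length, 88 of 9586 transcripts from 1000 to under 3000 nucleotides fell (0.918%) and 32 rose (0.334%). From 200 to under 1000 nucleotides, 20 of 3052 fell and 20 rose (0.655% each). Of 2785 transcripts of 3000 nucleotides or more, 16 fell (0.575%) and 8 rose (0.287%). Among the 121 transcripts under 200 nucleotides, 5 rose (4.13%, the highest share of the 4 length classes) and 0 fell by limma; the median SE of this class was 0.93 on the log2 scale, the largest of the length classes. The median length was 1566 nucleotides among the falls, 1260 among the rises and 1771 over all tested. None of the 189 called transcripts shared its reads in all 12 libraries with another called transcript of its direction.

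The make-up of the libraries was not shown to differ between the days. At 640790 reads each, a read was present on 15149 ± 1205 transcripts in the 7 day 10 libraries (SD) and on 14716 ± 764 in the 5 day 13 libraries (p = 0.471 by a two-sided exact permutation test). On day 13, replicates 1 to 4 had 15017 to 15144 and replicate 5 had 13352, below every day 10 library. The 10 most abundant transcripts held 12.4 ± 13.7% of reads on day 10 and 6.24 ± 0.46% on day 13 (SD; exact permutation test, p = 0.447), with 43.3% in day 10 replicate 7. The length at the middle of the reads, ordered by transcript length, was 1800 ± 310 nucleotides on day 10 and 1999 ± 78 on day 13 (SD; exact permutation test, p = 0.152). The fourth measure, the share of the most abundant transcript, had p = 0.494 by the same exact permutation test, and after adjustment over the 4 tests all stood at 0.494.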

How the data were processed

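Polyadenylated RNA was made into libraries by Illumina protocols, per the labels. The authors deposited 1 RPKM value for each of 28054 Ensembl transcripts in each of 28 libraries. The submitters' processing notes name CASAVA but no role for it. Which aligner, build and annotation were used is not given in the sources used here. Dividing the deposited RPKM values by their smallest steps gave whole reads, transcript lengths and library totals (100% of values above 0 whole within a relative 1e-06; at least 99.98% of each total). Of the lengths, 47.3% were multiples of 3.

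Libraries were grouped by labelled day; replicate numbers follow accession order. Transcripts that reached 1 RPKM in 4 or more of the libraries fitted were tested with limma 3.58.1 in R 4.3.3, using a mean-dependent prior and robust moderation, on log2(RPKM + 1), which understates changes of weak transcripts. Fits had all 12 libraries or 11, without day 13 replicate 5. The scripts were tested on simulated data. The identifiers printed follow the rule given with them. Libraries of other days served for levels only; 3 whose file carries a title of another day were left out, and day 16 replicates 2 and 3 were averaged for means. Alternatives were other pseudocounts, filters, scalings, models, equal depth, and leaving out libraries. Groups, lists and rules were chosen with earlier results of these data known.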

Additional observations from a re-analysis of the deposited data

Results flagged for a closer look

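In 16 groups (4 library measures and the 4 named transcripts, on each day), the highest and lowest library were compared with the others of their day by Dixon's ratio. In 5 groups 1 library lay far from the rest, where chance gives about 1 in 20; the groups share libraries and are not independent. Day 13 replicate 5 had a read on 13352 transcripts at equal depth, against 15017 to 15144 in the other 4. It also had the low value of ENSBTAT00000028140, 5.11 on the log2(RPKM + 1) scale against 6.37 to 6.79. Day 10 replicate 7 held 43.3% of its reads in the 10 most abundant transcripts, against 5.28 to 9.42% in the other 6 day 10 libraries. A single transcript of 92 nucleotides took 38.4% there, against 0.971 to 5.11% for the most abundant transcript of the others. Its length at the middle of the reads was 1124 nucleotides, against 1748 to 2025.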

How the results depend on the processing

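The count of calls depended on the libraries and the model. With all 12 libraries the 35 became 20 with a pseudocount of 0.1 or without a filter, 78 with quantile normalization, 261 in the model of all 5 days, 422 with voom on recovered reads, 1 with total reads as a covariate and 1648 with array weights. It was 239 without day 13 replicate 5 and day 10 replicate 7, and 591 in libraries over 4 M reads (M, 1e6). Without replicate 5 the 189 became 108 without a filter, 287 with quantile normalization, 396 in the model of all 5 days, 655 with voom, 83 with the covariate, 1688 with array weights and 591 in libraries over 4 M reads. Array weights were 6.43 and 5.88 for day 10 replicates 4 and 5, against at most 0.367 for the other day 10 libraries, and 0.236 for day 13 replicate 5. Falls outnumbered rises in each of these settings except the model of all 5 days with all 12 libraries, which gave 151 rises and 110 falls; without day 10 replicate 5 there were 26 and 24.

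Leaving out 1 library at a time gave 1 to 189 calls with all 12 and 77 to 239 without replicate 5. Beside the day 13 libraries named with the result, the 35 became 20 without day 10 replicate 2 and 23 without day 10 replicate 3. The 189 became 84, 88, 77 and 89 without day 13 replicates 1, 2, 3 and 4. The cause was not tested. The call of ENSBTAT00000005399 held in all 27 alternatives with 12 libraries (log2 change -5.67 to -3.81, adjusted p up to 0.032, limma). The calls of the other 3 named transcripts ended in 3 to 5 of 27, with adjusted p up to 0.177 (limma), and 0 reversed. Averaging day 10 replicates 4 and 5 gave 46 and 174 calls, and leaving out the transcript with the highest RPKM 47 and 215; these and the depth limit of 4 M reads were chosen after seeing the data. No paired analysis was possible because the labels name no heifer and give no pairing between libraries of the 2 days.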

Other observations

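At equal depth the libraries of day 10 differed among themselves more than day 13 replicates 1 to 4 did. The median SD of a tested transcript on log2(CPM + 1) was 1.10 over the 7 day 10 libraries, 0.54 over these 4 and 0.76 with replicate 5. For the 124 falling transcripts it was 0.94, 0.74 and 1.67, and for the 65 rising ones 0.70, 0.46 and 0.98. These last values are lower on day 10 partly by choice, since a small spread favours a call.

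Over 7626 pairs of the 124 falling transcripts, the median Pearson correlation across the 7 day 10 libraries at equal depth was 0.17, and 28.5% of pairs were above 0.5. Over 1596 pairs of 57 of the rising transcripts, those with any spread on day 10, the values were 0.23 and 25.4%. Over all pairs of 15496 tested transcripts they were 0.07 and 18.5%. With 7 libraries and few reads for weak transcripts, these values are a description only.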
